A study of Mus musculus with 17 samples.

Results

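Sialic acid metabolism was followed through 10 genes that make, break down or attach sialic acid, out of 53278 gene symbols measured in the small-intestinal epithelium of young mice. Gne, Nans, Nanp, Cmas and Cmah make and activate the sugar. Renbp, Npl and Neu1 serve its release and breakdown, and St3gal1 and St6gal1 attach it to glycans. The genes were picked by name with earlier results of these data in view, including their levels across dams and ages, so their own levels are given as a description, without p-values. Another 45 genes, listed by their roles in the same pathway, carry the tests. That list was also drawn up with earlier results of these data known, so its p-values and counts are not independent of them.

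The pups were Igha -/+ in every group (strain C57BL/6), and the groups differed in the dam and in age. The IgA-null dam was IgA -/-, and the B6 dam was C57BL/6. Cells that were EpCAM+ CD45- Ter119- were sorted from digested small intestine at 14, 24 and 42 days of life. The IgA-null dam groups held 3 libraries each, and the B6 dam groups held 3, 2 and 3 libraries at these ages. Litters are not given in the labels, so the p-values measure only the spread between these samples. Dates in the sample names differed between the dams at days 14 and 24 but not at day 42, and differed between day 14 and the later days within each dam. The date therefore cannot be told apart from the dam at days 14 and 24, nor from age in the comparisons with day 14. Sample names open with F for the IgA-null dam and with M for the B6 dam at every age. What these letters mark is not stated.

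Sialic acids are acidic sugars that cap the glycans of mucins, membrane proteins and gangliosides. Cells build them from UDP-N-acetylglucosamine in the cytosol, activate them with CMP and hand them to sialyltransferases in the Golgi. In lysosomes a sialidase cuts them off again, the exporter sialin moves the freed sugar to the cytosol, and a lyase and an epimerase turn it back into N-acetylglucosamine. Milk is rich in sialylated sugars and glycoproteins, and before weaning enterocytes take up milk proteins by endocytosis and digest them in lysosomes.

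On the GRCm38 assembly, Gne lies at chr4:44034075-44084177, Nans at chr4:46489248-46503632, Nanp at chr2:151029685-151039398, Cmas at chr6:142756686-142775714 and Cmah at chr13:24327404-24477377. Renbp lies at chrX:73922121-73930850, Npl at chr1:153503015-153550045 and Neu1 at chr17:34931253-34935953. St3gal1 lies at chr15:67102875-67176830 and St6gal1 at chr16:23224740-23360350. All are annotated as protein-coding, and the values sum over their exons. Because Renbp is X-linked, sex-linked genes were looked at, and they showed a male pattern in every library. The Y-linked Ddx3y was present in all 17 libraries at 2.46 to 9.50 TPM (a measure of transcripts corrected for gene length and library total), and Xist did not exceed 0.127 TPM.

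RefSeq gave promoter sequence for 7 of the 10 genes (GRCm38.p6), and no entry was used for Nans, Nanp and St3gal1. The 250 bases before the start of Renbp (chrX:73930851-73931100, minus strand) and Neu1 (chr17:34931003-34931252, plus strand), whose levels were high at day 14 and low later, are shown beside those of Cmas (chr6:142756436-142756685, plus strand), whose scaled group means varied least among the 7 genes with at least 1 TPM in 2 or more libraries. Capitals mark the GC box GGGCGG, searched on both strands and here read from the opposite strand.
Renbp: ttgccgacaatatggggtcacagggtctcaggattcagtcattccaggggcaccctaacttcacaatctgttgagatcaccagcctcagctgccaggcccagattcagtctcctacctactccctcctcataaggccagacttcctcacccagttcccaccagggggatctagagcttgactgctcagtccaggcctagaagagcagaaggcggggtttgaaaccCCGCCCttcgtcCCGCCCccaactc
Neu1: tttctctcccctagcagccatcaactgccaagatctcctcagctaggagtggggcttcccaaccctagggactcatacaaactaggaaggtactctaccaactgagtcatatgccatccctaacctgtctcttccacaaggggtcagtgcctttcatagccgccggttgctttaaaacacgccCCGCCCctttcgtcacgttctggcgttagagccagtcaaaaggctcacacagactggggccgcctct
Cmas: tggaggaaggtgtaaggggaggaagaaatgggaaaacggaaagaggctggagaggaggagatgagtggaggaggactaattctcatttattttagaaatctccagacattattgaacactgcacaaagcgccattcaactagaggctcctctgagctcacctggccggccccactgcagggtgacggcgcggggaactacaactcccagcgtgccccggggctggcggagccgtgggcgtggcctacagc
Counting back from the start, the GC box began at positions -25 and -13 of Renbp and at -67 of Neu1, and it was in none of the other windows, those of Cmas and of Npl (also high at day 14) included. It occurs in 32.7% of 32851 mouse promoter windows of the same length. The E-box CACGTG (6.02% of windows) began at -51 of Npl, in a window that overlaps an annotated exon, and the CDX2 motif TTTATNG (9.81%) at -189 of the upstream start of Gne. The lysosomal E-box TCACGTG, which contains CACGTG (3.13%), the HNF4 motif CAAAGTCCA (0.384%), the BLIMP1 motif GAAAGTGAA (0.481%) and the TATA box TATAAA (12.4%) were searched on both strands too and were in none of the windows of these 7 genes.

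The deposited TPM values sum to the same total in each library, with no scaling between libraries. Multiplied by exon length they gave whole reads for 93.6% of values, and these reads put the depth between 8926993 and 18897602 per library. Most genes moved together in several comparisons, so values are also given divided by a size factor per library (median of ratios, 0.480 to 1.84), called scaled. Scaling moved the median log2 difference of all 15066 tested genes from 0.33 to -0.01 between the dams at day 14 and from -0.38 to -0.03 at day 24. For the later day against day 14 the deposited medians were -1.02 (day 24) and -0.48 (day 42) for the IgA-null dam, and -0.29 and -0.17 for the B6 dam, and they lay between -0.02 and 0.01 once scaled. Epcam, the sorted surface marker, stood at 153 to 500 TPM, and Ptprc, which encodes CD45, reached at most 0.806 TPM. Summed over 6 macrophage genes, the level was at most 10.2 TPM. A sum of 4 erythroid genes reached 28.9 TPM in the second IgA-null dam library of day 24, against at most 2.16 TPM in every other library. In bulk RNA, fewer cells of a type and less RNA per cell cannot be told apart. The third B6 dam library of day 14 and the first of day 42 stood apart from the rest of their groups in enterocyte markers. The 2 B6 dam libraries of day 24 lay far from each other in these markers. These libraries are named with the results they touch.

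**Figure D1:**
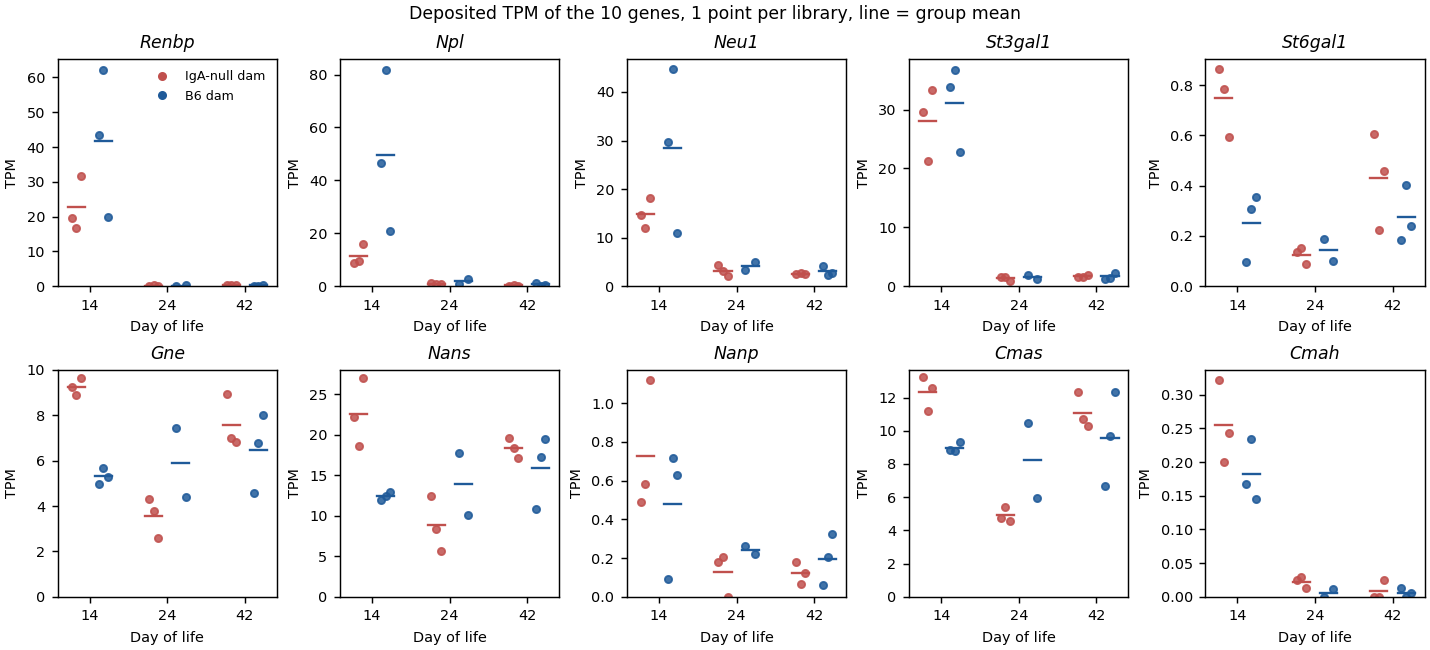
Deposited TPM of the 10 genes in each library (points) and the group mean (lines), by day of life, with the IgA-null dam left of the B6 dam at each age. Renbp, Npl, Neu1 and St3gal1 are high at day 14 and low later, while Gne, Nans and Cmas show no such step and have their lowest mean in the day 24 group of the IgA-null dam.

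The breakdown genes were higher at day 14 than afterwards with either dam, and of them Renbp and Npl became scarce. Renbp encodes the epimerase that interconverts N-acetylmannosamine and N-acetylglucosamine. With the IgA-null dam it stood at 19.5, 16.7 and 31.8 TPM on day 14, at 0.107, 0.198 and 0.0194 TPM on day 24 and at 0.369, 0.318 and 0.435 TPM on day 42. Under the B6 dam it stood at 43.5, 62.2 and 19.9 TPM on day 14, at 0.0875 and 0.231 TPM on day 24 and at 0.0697, 0.162 and 0.343 TPM on day 42. Within each dam no later library overlapped the day 14 libraries in either scaling, for Renbp as for Npl, Neu1 and St3gal1. With the IgA-null dam, 79.9% of all tested genes lay lower without overlap at day 24 and 59.3% at day 42 as deposited (18.3% and 23.8% scaled), and with the B6 dam 33.6% and 21.2% did (17.4% and 16.7% scaled). The later Renbp values rest on 1 to 24 reads, against 432 to 1741 at day 14. The day 42 mean lay 60.6-fold below the day 14 mean with the IgA-null dam (38.0-fold scaled), and 218-fold below it with the B6 dam (204-fold scaled). The B6 dam fold was 361 without the third day 42 library.

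Npl encodes the lyase that splits N-acetylneuraminic acid into N-acetylmannosamine and pyruvate. In pups of IgA-null dams its level was 8.83, 9.36 and 16.1 TPM on day 14, 1.27, 0.667 and 0.950 TPM on day 24 and 0.164, 0.568 and 0.0763 TPM on day 42. In pups of B6 dams it was 46.5, 81.8 and 21.0 TPM on day 14, 0.707 and 2.82 TPM on day 24 and 1.32, 0.0855 and 0.559 TPM on day 42. At day 14 every library of the IgA-null dam lay below every library of the B6 dam, and at the later days the dams overlapped. The day 42 mean lay 42.3-fold below the day 14 mean with the IgA-null dam (27.1-fold scaled), and 75.9-fold below it with the B6 dam (56.3-fold scaled). These folds were 94.9 (61.0 scaled) without the second IgA-null dam library of day 42 and 154 (158 scaled) without the first B6 dam library of day 42. Its day 24 value in the second B6 dam library and its day 42 value in the first were the highest of their ages, as were those of Neu1.

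Neu1 encodes the lysosomal sialidase. With the IgA-null dam it was at 14.8, 11.9 and 18.1 TPM on day 14, 4.25, 3.12 and 2.08 TPM on day 24 and 2.55, 2.72 and 2.52 TPM on day 42. B6 dam pups had 29.7, 44.6 and 10.9 TPM of it on day 14, 3.28 and 4.99 TPM on day 24 and 4.13, 2.25 and 2.78 TPM on day 42. All day 14 libraries lay above all later ones, by a narrower margin than for Renbp. As deposited, the day 42 mean was 5.75-fold lower with the IgA-null dam and 9.31-fold lower with the B6 dam. With each library left out in turn, the scaled day 42 difference in log2(TPM + 1) was -1.58 to -1.48 with the IgA-null dam. With the B6 dam it was -3.00 to -2.05. Scaled, the distance of day 24 from day 14 with the IgA-null dam was 1.71-fold, against 4.73-fold as deposited. The scaled level of Neu1 in the second B6 dam library of day 24 was 7.40 TPM, not far below the 8.46 to 9.83 TPM of the IgA-null dam libraries of day 14.

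Of the genes that attach sialic acid, St3gal1 followed the breakdown genes. It encodes the sialyltransferase that caps galactose on mucin-type O-glycans. St3gal1 stood at 29.6, 21.3 and 33.3 TPM on day 14 with the IgA-null dam, at 1.48, 1.57 and 0.846 TPM on day 24 and at 1.49, 1.61 and 1.92 TPM on day 42. The B6 dam values were 33.9, 36.8 and 22.8 TPM on day 14, 1.94 and 1.27 TPM on day 24 and 1.26, 1.41 and 2.25 TPM on day 42. Both dams gave nearly the same day 42 mean, 1.67 ± 0.225 TPM with the IgA-null dam and 1.64 ± 0.532 TPM with the B6 dam (SD, n = 3 each), which was 16.8-fold and 19.0-fold lower than at day 14 as deposited. Scaled, the day 42 difference in log2(TPM + 1) was smaller with the IgA-null dam. With each library left out in turn it was -2.89 to -2.72 there, against -3.58 to -3.27 with the B6 dam. The values of St3gal1 did not come out as whole reads, so no read number is given for it. St6gal1, which adds sialic acid to N-glycans in the other linkage, was low throughout, at 0.0888 to 0.865 TPM, and did not pass the filter of 1 TPM in at least 2 libraries. On day 14 it had 41, 40 and 28 reads in the libraries of the IgA-null dam and 7, 17 and 26 reads in those of the B6 dam. These read counts, taken at unequal depth, do not overlap between the dams. In TPM, 45.1% of all tested genes lay higher without overlap with the IgA-null dam at day 14 as deposited, and 16.0% scaled. Those shares count TPM values and not reads, so they are no direct match for the counts of St6gal1.

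Of the 5 genes that make sialic acid, Gne, Nans and Cmas varied little by comparison, while Nanp and Cmah were near the limit of detection. Gne encodes the rate-limiting epimerase and kinase, and with the IgA-null dam it stood at 9.25, 8.90 and 9.66 TPM on day 14, 4.29, 3.77 and 2.61 TPM on day 24 and 8.92, 7.02 and 6.83 TPM on day 42. In B6 dam pups Gne stood at 4.99, 5.66 and 5.29 TPM on day 14, 7.43 and 4.40 TPM on day 24 and 4.56, 6.80 and 8.02 TPM on day 42. Divided by size factors, its group means spanned only 4.50 TPM (B6 dam, day 14) to 7.23 TPM (IgA-null dam, day 42).

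Nans, the synthase that joins phosphorylated N-acetylmannosamine to phosphoenolpyruvate, was at 22.2, 18.6 and 27.0 TPM on day 14 with the IgA-null dam, 12.4, 8.39 and 5.68 TPM on day 24 and 19.6, 18.4 and 17.2 TPM on day 42. Its B6 dam values were 11.9, 12.4 and 13.0 TPM on day 14, 17.7 and 10.1 TPM on day 24 and 10.8, 17.3 and 19.4 TPM on day 42. Cmas, which activates sialic acid with CMP in the nucleus, was at 13.2, 11.2 and 12.6 TPM on day 14 with the IgA-null dam, 4.73, 5.41 and 4.56 TPM on day 24 and 12.3, 10.7 and 10.3 TPM on day 42. With the B6 dam it was at 8.83, 8.79 and 9.33 TPM on day 14, 10.5 and 5.98 TPM on day 24 and 6.69, 9.66 and 12.4 TPM on day 42. The low day 24 values of Gne, Nans and Cmas with the IgA-null dam shared the shift of all genes at that age: their log2 differences from day 14 were -1.19, -1.31 and -1.18 as deposited and 0.08, 0.08 and 0.15 scaled.

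The remaining genes of this branch were barely detected and did not pass the filter. Nanp, the phosphatase of the last step before free sialic acid, had 0 to 16 reads per library (0 to 1.12 TPM). Cmah, the hydroxylase that converts N-acetylneuraminic to N-glycolylneuraminic acid in mice, had 33, 22 and 25 reads on day 14 with the IgA-null dam and 26, 28 and 23 reads with the B6 dam. It had 0 to 6 reads in each of the 11 later libraries, and was listed at 0 in 4 of them. Such counts allow no comparison between the dams at the later ages, since a count of 0 allows up to 3 reads. All later counts lay below every day 14 count, but depth was unequal. Lower TPM without overlap was common among all tested genes. Its deposited share was 79.9% (day 24) and 59.3% (day 42) for IgA-null dam pups, or 18.3% and 23.8% scaled. For B6 dam pups it was 33.6% and 21.2%, or 17.4% and 16.7% scaled. These shares concern TPM, so they do not match the read counts of Cmah directly.

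The order of levels among these genes, compared in TPM and so per length, turned over with age. At day 14 with the B6 dam, Npl (49.7 ± 30.5 TPM), Renbp (41.8 ± 21.2), St3gal1 (31.1 ± 7.38) and Neu1 (28.4 ± 16.9) came first and did not differ beyond their spread. Nans (12.5 ± 0.511), Cmas (8.98 ± 0.300) and Gne (5.31 ± 0.335) followed, each apart from the next (SD, n = 3 each), although the third library placed Neu1 at 10.9 TPM, below Nans. At day 14 with the IgA-null dam St3gal1 led at 28.1 ± 6.13 TPM, with Renbp (22.7 ± 8.00) and Nans (22.6 ± 4.19) close behind, and Npl at 11.4 ± 4.04 TPM stood beside Cmas at 12.3 ± 1.06. At day 42 Nans was first with either dam, at 18.4 ± 1.21 TPM with the IgA-null dam and 15.8 ± 4.48 TPM with the B6 dam. Cmas and Gne came next, and Renbp and Npl came last among the 7 genes past the filter, with means of 0.192 to 0.655 TPM.

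Between the dams at day 14, Npl had the largest difference of the 7 genes past the filter in both scalings. Its mean was 4.36-fold lower with the IgA-null dam than with the B6 dam (11.4 ± 4.04 against 49.7 ± 30.5 TPM, SD, n = 3 each), or 6.06-fold lower scaled. On the log2(TPM + 1) scale, which understates changes of low genes, the difference was -1.88 (SE 0.41), and -2.27 (SE 0.47) scaled. It ranged from -2.38 without the third B6 dam library to -1.43 without the second. Of all tested genes, 1.1% lay lower without overlap in this comparison as deposited and 15.1% scaled. Renbp had a mean of 22.7 ± 8.00 TPM with the IgA-null dam and 41.8 ± 21.2 TPM with the B6 dam, and Neu1 14.9 ± 3.08 and 28.4 ± 16.9 TPM, and both overlapped through the third B6 dam library. Their deposited log2 differences were -0.77 (SE 0.30) and -0.70 (SE 0.36), moving to -1.22 and -1.25 without that library and to -0.42 and -0.28 without the second. The means of Renbp and Neu1 were 1.85-fold and 1.91-fold lower with the IgA-null dam as deposited, and 2.59-fold and 2.64-fold lower scaled. St3gal1 was 1.11-fold lower as deposited, with overlap. Scaled it was 1.55-fold lower without overlap, a state shared by the 15.1% of all tested genes given above.

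Gne and Nans ran the other way at day 14. Gne had a mean of 9.27 ± 0.381 TPM with the IgA-null dam and 5.31 ± 0.335 TPM with the B6 dam (1.74-fold, 1.27-fold scaled). Nans had 22.6 ± 4.19 and 12.5 ± 0.511 TPM in the same groups (1.81-fold, 1.31-fold scaled). Neither overlapped between the dams, in a comparison where 45.1% of all tested genes lay higher without overlap as deposited and 16.0% scaled. Cmas was 1.37-fold higher as deposited and had the same mean once scaled, 7.60 TPM with the IgA-null dam and 7.61 TPM with the B6 dam.

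Of the 10 genes, 7 passed the filter, and limma with Benjamini-Hochberg adjustment over all 15066 genes (threshold 0.05) called them as follows, with nothing read from the counts because the genes were picked on these contrasts. At day 14 it called 1 of 7 lower with the IgA-null dam as deposited (Npl), where 0.358% of all genes were called lower, and 2 scaled (Npl and Renbp), where 1.16% were. The deposited call was lost without the first IgA-null dam or the first or second B6 dam library, and the scaled calls when any 1 of the 6 libraries but the third of the B6 dam was left out. At day 24 against day 14 with the IgA-null dam it called 7 lower as deposited, where 82.9% of all genes were, and 3 scaled (Renbp, Npl and St3gal1), where 8.28% were. That scaled call of Npl was lost when any 1 library was left out. At day 42 against day 14 with the same dam it called 4 lower in both scalings (Renbp, Npl, Neu1 and St3gal1), where 38.9% and 8.09% of all genes were, and scaled it called Cmas higher, as it did 8.4% of all genes. With the B6 dam it called these 4 lower at day 24 (6.99% of all genes as deposited, 5.91% scaled) and at day 42 (6.33% and 6.6%). Without the first B6 dam library of day 24 the scaled day 24 call of Neu1 was lost. Gne and Nans were called higher at both ages only after scaling (7.93% of all genes at day 24 and 7.04% at day 42). In the IgA-null dam pups the 5 scaled day 42 calls were 3 when any 1 library was left out, those of Neu1 and Cmas being lost. The scaled day 42 call of Gne with the B6 dam was lost without the first library of day 14 or without replicate 2 or 3 of day 42.

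**Figure D2:**
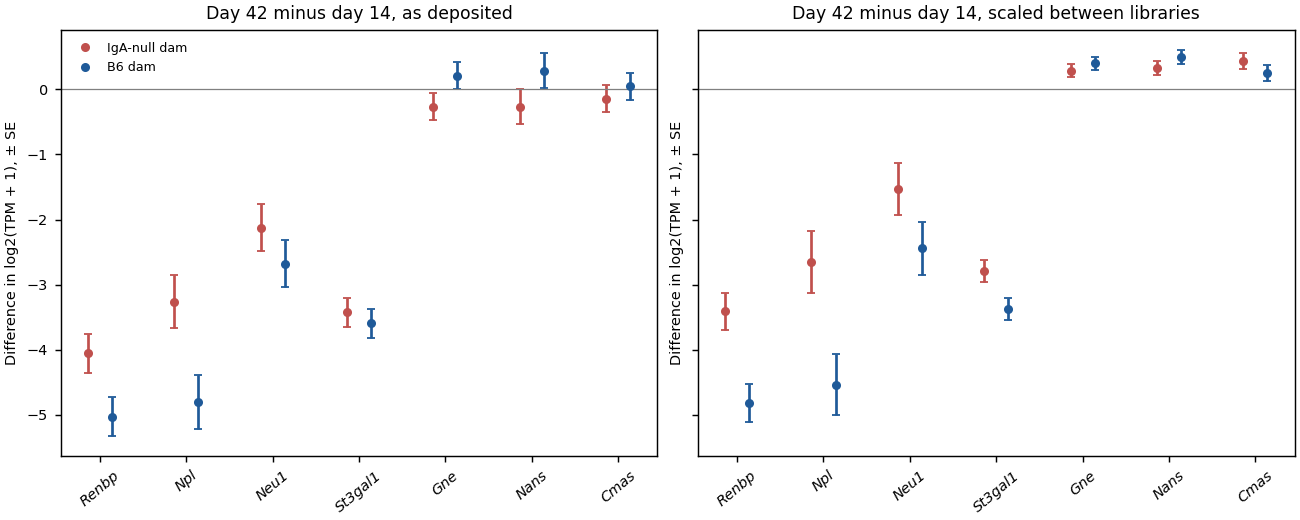
Difference in log2(TPM + 1) between day 42 and day 14 for the 7 genes past the filter (points, with the SE from limma as bars), with the IgA-null dam left of the B6 dam, as deposited (left panel) and scaled (right panel). Renbp, Npl, Neu1 and St3gal1 lie far below 0 in both panels, and Gne, Nans and Cmas lie near 0, on either side of it as deposited and above it scaled.

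Of 4 other genes tested for the release and lysosomal export of sialic acid, Slc17a5 and Ctsa were lower with the IgA-null dam at day 14 in both scalings, and Slc17a5, Ctsa and Glb1 fell by day 42 with the B6 dam. Slc17a5 encodes sialin, the lysosomal sialic acid exporter. It stood at 8.01, 8.01 and 11.8 TPM on day 14 with the IgA-null dam and at 30.0, 51.9 and 10.4 TPM with the B6 dam. The third B6 dam library was the lowest of its group and lay within the range of the IgA-null dam. The log2 difference of Slc17a5 was -1.39 (SE 0.37, limma adjusted p = 0.0304), or -1.78 scaled (adjusted p = 0.0231). Ctsa, the protective protein that keeps Neu1 stable, was at 20.1, 13.6 and 21.8 TPM with the IgA-null dam and 50.9, 68.5 and 22.4 TPM with the B6 dam. The groups lay apart by a narrow margin, again through the third B6 dam library. Of all tested genes, 1.1% lay lower without overlap there as deposited and 15.1% scaled. The log2 difference of Ctsa was -1.20 (SE 0.31, limma adjusted p = 0.0268), or -1.62 scaled (adjusted p = 0.0196). Both calls were lost when any 1 library other than the third of the B6 dam was left out (limma adjusted p from 0.0563 to 0.117 as deposited).

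In the B6 dam pups Slc17a5 fell to 2.07 ± 0.815 TPM at day 24 (n = 2) and 2.69 ± 0.440 TPM at day 42 (n = 3), against 30.8 ± 20.8 TPM at day 14 (SD, n = 3). The log2 difference at day 42 was -2.85 (SE 0.37, limma adjusted p = 9.96e-05), or -2.63 scaled. Ctsa fell to 9.30 ± 1.18 TPM at day 42, against 47.3 ± 23.2 TPM at day 14 (log2 difference -2.10, limma adjusted p = 0.000319; -1.87 scaled). Glb1, the beta-galactosidase of the same lysosomal complex, fell to 4.41 ± 1.22 TPM at day 42, against 22.4 ± 9.95 TPM at day 14 (-2.04, limma adjusted p = 0.00018; -1.83 scaled). At day 42 these 3 calls held without each single library in both scalings, and at day 24 those of Slc17a5 and Glb1 did, while that of Ctsa was lost without the first day 24 library after scaling (limma adjusted p = 0.0551). The IgA-null dam pups had 2.62 ± 0.165 TPM of Slc17a5 at day 42 and 9.26 ± 2.18 TPM at day 14, and 9.02 ± 1.54 and 18.5 ± 4.33 TPM of Ctsa, and neither passed in both scalings. With the IgA-null dam Glb1 fell to 4.35 ± 0.355 TPM at day 42, against 13.5 ± 2.39 TPM at day 14 (-1.42, limma adjusted p = 0.00199; -0.84 scaled, adjusted p = 0.0206). Neu3, a sialidase of the plasma membrane, fell with it (log2 difference -0.77, limma adjusted p = 0.003; -0.42 scaled, adjusted p = 0.0362). In these pups both were also lower at day 24, with log2 differences of -2.10 and -0.96 (limma adjusted p = 2.96e-05 and 9.8e-05), or -0.86 and -0.40 scaled. At that age 82.9% of all genes were called lower as deposited and 8.28% scaled. The deposited fall of Neu3 did not exceed the median fall of all genes there. Scaled, each of these 4 calls of Glb1 and Neu3 was lost without at least 4 of the 6 libraries taken singly. Gnpda1, a deaminase that feeds the freed amino sugar into glycolysis, fell with the B6 dam at day 42 to 5.82 ± 3.01 TPM, against 25.8 ± 12.9 TPM at day 14 (-1.94, limma adjusted p = 0.00491; -1.71 scaled, adjusted p = 0.0317), a call lost after scaling without 4 of the 6 libraries taken singly. Amdhd2, which removes the acetyl group before that step, had with the IgA-null dam 4.91 ± 0.547 TPM at day 42 and 6.99 ± 1.46 TPM at day 14, and was called in no age comparison after scaling.

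The sialyltransferases split by family member. St3gal3, which caps N-glycans and type I chains, fell with either dam. In pups of the IgA-null dam it fell to 1.88 ± 0.253 TPM at day 24 and 2.59 ± 0.350 TPM at day 42, against 14.9 ± 2.81 TPM at day 14. In those of the B6 dam it fell to 1.63 ± 0.956 TPM (n = 2) at day 24 and 2.50 ± 0.976 TPM at day 42, against 18.0 ± 3.64 TPM at day 14. Its log2 differences at day 42 were -2.14 (limma adjusted p = 1.98e-05) and -2.46 (3.91e-06), or -1.54 and -2.26 scaled. All 4 age calls of St3gal3 held without each single library in both scalings. St3gal5, the ganglioside GM3 synthase, was at 1.54, 0.590 and 1.91 TPM on day 14 with the IgA-null dam and at 7.55, 12.4 and 2.27 TPM with the B6 dam. The groups did not overlap, where 1.1% of all tested genes lay lower without overlap as deposited and 15.1% scaled. The log2 difference of St3gal5 was -1.67 (SE 0.35, limma adjusted p = 0.012), or -1.83 scaled (adjusted p = 0.0167). That call was lost without the first or the second B6 dam library (limma adjusted p = 0.0576 and 0.0512 as deposited), and scaled also without the second IgA-null dam library (0.067). St3gal5 was listed at 0 in all 6 libraries of day 42, so no fold is given, and with the B6 dam it passed the test against day 14 at both later ages. St3gal6 fell with the IgA-null dam at day 24 to 1.33 ± 0.342 TPM, against 5.83 ± 1.86 TPM at day 14 (-1.53, limma adjusted p = 2.37e-05; -0.46 scaled, adjusted p = 0.0447), and lost that call after scaling without 5 of 6 libraries taken singly. St3gal4, which makes sialylated type II chains, was the most abundant sialyltransferase, at 48.7 ± 10.7 TPM on day 42 with the IgA-null dam and 69.4 ± 26.9 TPM with the B6 dam, and its only call was after scaling, in the IgA-null dam comparison of day 24 with day 14 (log2 difference 1.47, limma adjusted p = 0.0386; -0.00 as deposited). St6galnac2, which acts on mucin-type glycans, averaged 7.56 ± 1.80 TPM on day 42 with the IgA-null dam and 7.03 ± 2.40 TPM with the B6 dam. The other 6 genes of the St6 families and all 6 St8sia genes did not pass the filter.

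Of 5 genes tested for making the substrate of Gne and carrying CMP-sialic acid into the Golgi, 2 rose in the B6 dam pups. Gfpt1, the rate-limiting enzyme of the hexosamine pathway, rose at day 42 to 26.6 ± 5.72 TPM, against 12.4 ± 1.53 TPM at day 14 (SD, n = 3 each; log2 difference 1.03, limma adjusted p = 0.00806; 1.24 scaled). That call held without each single library in both scalings. Uap1, which forms UDP-N-acetylglucosamine, rose to 10.3 ± 0.890 TPM at day 24 (n = 2) and 10.9 ± 2.21 TPM at day 42, against 5.49 ± 0.357 TPM at day 14 (0.80 and 0.86, limma adjusted p = 0.031 and 0.00925; 1.21 and 1.05 scaled). As deposited the day 24 call of Uap1 was lost when any 1 library of either age was left out, and the day 42 call without the second day 14 library (limma adjusted p = 0.0501). With the IgA-null dam the difference of Gfpt1 at day 24 was -0.63 as deposited and 0.78 scaled, so its direction followed the scaling. Gnpnat1, the acetyltransferase of the same pathway, stood on day 14 at 1.75, 1.49 and 2.09 TPM with the IgA-null dam and at 0.290, 0.320 and 0.339 TPM with the B6 dam, without overlap. In that comparison 45.1% of all tested genes lay higher without overlap as deposited, and 16.0% scaled. The log2 difference of Gnpnat1 was 1.07 (SE 0.18, limma adjusted p = 0.00409), or 0.72 scaled (adjusted p = 0.0325), and the call was lost after scaling when any 1 of the 6 libraries was left out. Gnpnat1 then fell with the IgA-null dam at day 42 (-0.91, limma adjusted p = 0.0023; -0.52 scaled, adjusted p = 0.042), a call lost after scaling in the same way. Pgm3, the mutase that follows it, averaged with the IgA-null dam 6.83 ± 0.732 TPM at day 42 and 12.1 ± 2.37 TPM at day 14, a difference called as deposited but not scaled.

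Of 9 genes for sialic acid receptors, only Siglecf passed the filter. Siglecf, a sialic acid-binding lectin of eosinophils that tuft cells also express in mice, was at 7.62, 2.34 and 1.44 TPM on day 42 with the IgA-null dam, against 1.60, 0.900 and 1.38 TPM on day 14. With the B6 dam it was at 1.85, 1.52 and 3.14 TPM on day 42, against 0.492, 0.287 and 0.360 TPM on day 14. It rose at day 42 with either dam (log2 differences 0.86 for the IgA-null and 1.17 for the B6 dam, limma adjusted p = 0.0471 and 0.0338; 1.16 and 1.22 scaled). Without the first day 42 library of the IgA-null dam its log2 difference there was 0.33 (limma adjusted p = 0.252). As deposited, the call was lost with either dam without 5 of the 6 libraries taken singly. Tuft cell markers moved with it: 5 genes summed in IgA-null dam libraries to 36.1 to 94.1 TPM at day 42 and 13.1 to 19.9 TPM at day 14, and in B6 dam libraries to 17.2 to 50.1 TPM and 2.68 to 3.27 TPM. Their part in the result was not tested.

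**Figure D3:**
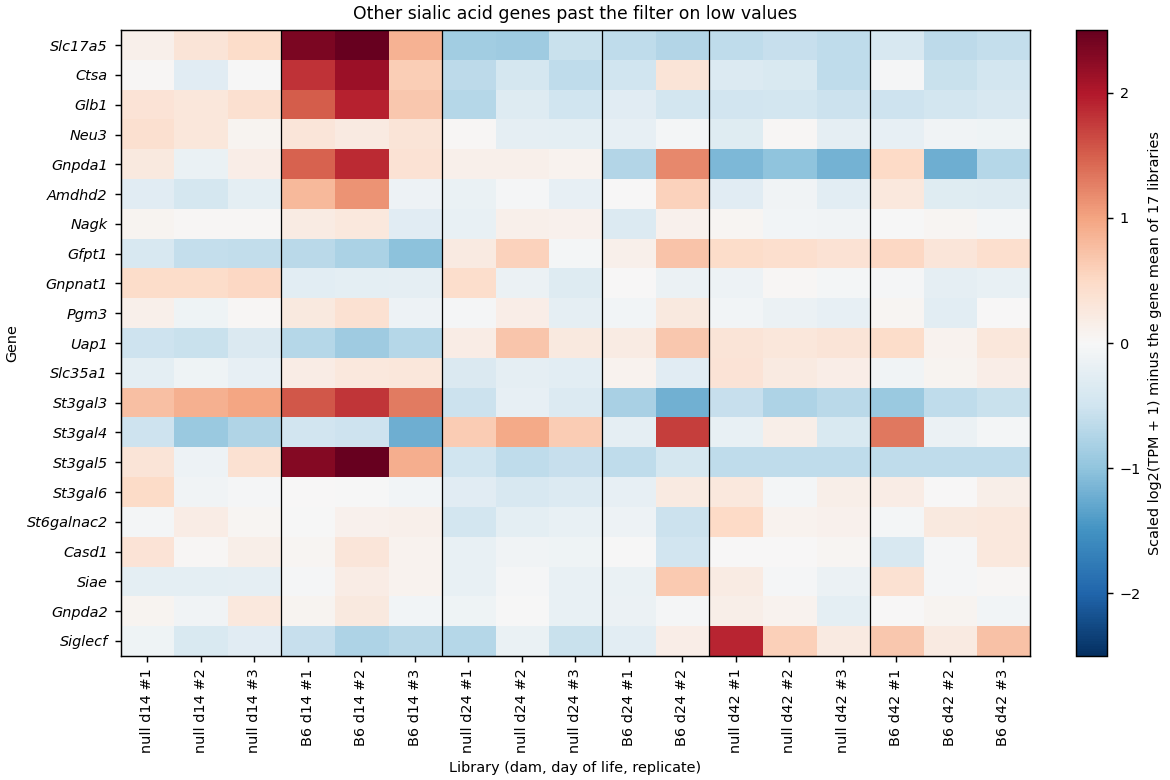
Scaled log2(TPM + 1) minus the gene's mean over 17 libraries (colour, red above and blue below the mean) for the 21 other genes past the filter (rows) in each library (columns, IgA-null dam before B6 dam at each age). Slc17a5, Glb1 and St3gal3 are red in all 6 day 14 libraries, Ctsa and St3gal5 are so in the 3 of the B6 dam, and Gfpt1 and Uap1 are blue in all 6.

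Counted over the 45 other genes, 21 passed the filter. At day 14, limma called 5 of 21 between the dams as deposited and 7 scaled, where it called 8.68% and 2.97% of all genes. It called 4 in both scalings, 1 of them higher in pups of the IgA-null dam and 3 lower (8.32% and 0.358% of all genes as deposited, 1.81% and 1.16% scaled). The median log2 difference of the 21 was 0.24, against 0.33 over all genes (-0.03 and -0.01 scaled). For day 24 against day 14 with the IgA-null dam, 4 of 21 were lower in both scalings, where limma called 82.9% of all genes lower as deposited and 8.28% scaled (medians -1.18 for the 21 and -1.02 for all genes, -0.23 and -0.02 scaled). At day 42 with this dam, 4 were lower and 1 higher in both, where 38.9% of all genes were called lower and 1.77% higher as deposited, and 8.09% and 8.4% scaled (medians -0.60 and -0.48, -0.08 and -0.02 scaled). With the B6 dam 5 were lower and 1 higher in both scalings at day 24, where 6.99% of all genes were called lower and 1.62% higher as deposited, and 5.91% and 7.93% scaled (medians -0.61 and -0.29, -0.31 and 0.01 scaled). At day 42 with this dam 6 were lower and 3 higher, where 6.33% of all genes were called lower and 2.78% higher as deposited, and 6.6% and 7.04% scaled (medians -0.37 and -0.17, -0.19 and -0.01 scaled). The comparisons with the same day 14 libraries share them and are not independent.

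At the later ages no gene of the pathway was called between the dams with all libraries in the fit. At day 24, limma called 0 of the 7 picked and 0 of the 21 other genes (2 and 8 at an unadjusted p under 0.05 as deposited, 0 and 1 scaled), where it called 0.0265% of all genes as deposited and 0.0% scaled. As deposited, 3 and 2 were called without the second B6 dam library of day 24, and 3 of the other genes without the first IgA-null dam library. At day 42 it called 0 and 0 (0 and 0 unadjusted in both scalings), where it called 0.0% of all genes. The change of the dam effect between day 42 and day 14 was called in 0 and 0 genes (2 and 5 unadjusted as deposited, 3 and 8 scaled), where limma called 0.126% of all genes as deposited and 0.0398% scaled. Without the third B6 dam library of day 14 it was called in 0 and 2 genes as deposited and in 1 and 4 scaled. Limma-voom on the recovered reads called none of them in these 3 comparisons (0 of the picked genes at an unadjusted p under 0.05, and 1, 0 and 7 of the other genes). For Npl, that change was 1.55 (SE 0.58) as deposited, as the log2 difference between the dams was -0.33 (SE 0.41) at day 42 against -1.88 (SE 0.41) at day 14.

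Markers of the suckling enterocyte moved with the breakdown genes, and those of the mature enterocyte were also high at day 14, with overlap between ages. Summed over 12 such markers, day 14 libraries held 474, 245 and 497 TPM with the IgA-null dam and 1244, 1830 and 459 TPM with the B6 dam. Day 24 libraries held 81.0, 62.0 and 44.5 TPM with the IgA-null dam and 31.6 and 170 TPM with the B6 dam. Day 42 libraries held 33.4, 44.0 and 26.2 TPM with the IgA-null dam and 123, 28.0 and 40.5 TPM with the B6 dam. The third day 14 library of the B6 dam, lowest of its group in Renbp, Npl, Neu1 and St3gal1, was also lowest in these markers. The second day 24 and the first day 42 library of the B6 dam held the highest sums of their ages, and were highest in Npl and Neu1 but not in St3gal1. At most 1 of the 12 markers was at 0 in any library, but not all were abundant. In each day 14 group 10 of them reached 1 TPM in some library, against 6 in the IgA-null dam group of day 24 and 9 in each other group. The sums weigh the abundant markers most. Over 9 mature enterocyte markers, none of them at 0, day 14 libraries held 8238, 3722 and 7947 TPM with the IgA-null dam and 8359, 10296 and 3352 TPM with the B6 dam. On day 24 the sums were 4192, 1928 and 1735 TPM with the IgA-null dam and 1189 and 7206 TPM with the B6 dam, and on day 42 they were 627, 999 and 488 TPM with the IgA-null dam and 3777, 560 and 1499 TPM with the B6 dam. Within the B6 dam, the third day 14 library was again the lowest of its group. The second day 24 and the first day 42 library were again the highest of their ages. Between the dams at day 14, the suckling and mature enterocyte sums overlapped as deposited. Scaled, the suckling sums lay apart, at 174 to 288 TPM with the IgA-null dam and 387 to 1507 TPM with the B6 dam. Secretory markers were higher with the IgA-null dam at day 14. In that comparison 45.1% of all tested genes lay higher without overlap as deposited, and 16.0% scaled. Goblet markers (8 genes) summed to 2081 to 3818 TPM with the IgA-null dam and 515 to 783 TPM with the B6 dam (1476 to 2318 and 424 to 686 scaled). Enteroendocrine markers (8 genes) summed to 1028 to 1521 TPM with the IgA-null dam and 158 to 205 TPM with the B6 dam (729 to 897 and 139 to 169 scaled). Paneth cell markers (6 genes) summed to 659 to 1188 TPM with the IgA-null dam and 291 to 467 TPM with the B6 dam (468 to 721 and 240 to 410 scaled). Their part in the results was not tested.

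**Figure D4:**
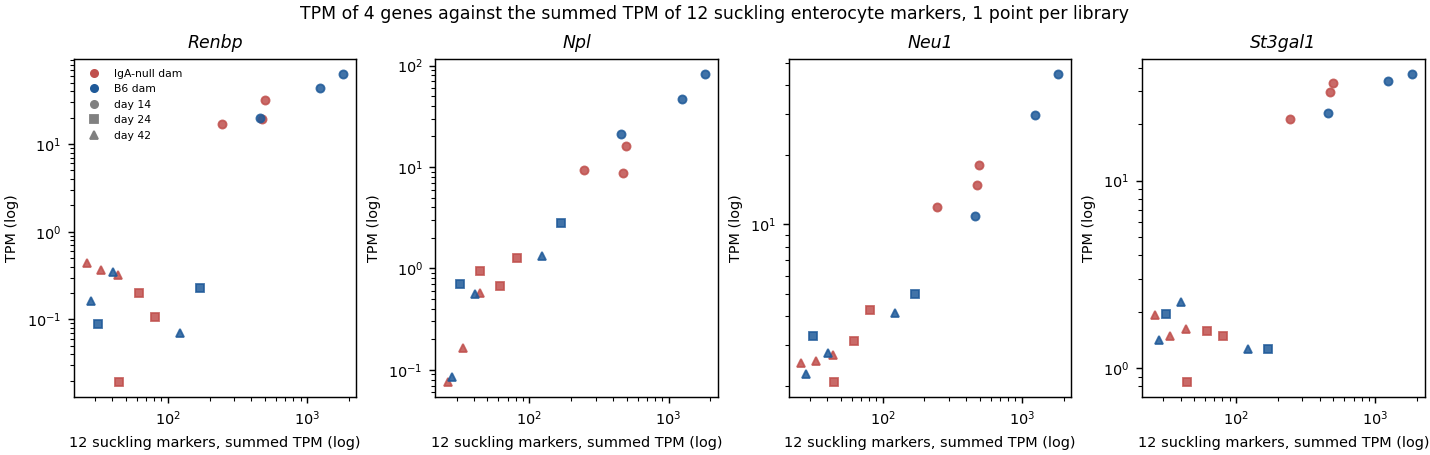
TPM of Renbp, Npl, Neu1 and St3gal1 (vertical, log axis) against the summed TPM of 12 suckling enterocyte markers (horizontal, log axis), 1 point per library, coloured by dam and shaped by day. Day 14 libraries lie at the upper right in each panel, and the day 42 library with the highest marker sum, 123 TPM, is the highest of its age in Npl and Neu1 and the lowest in Renbp and St3gal1.

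The genes with the profiles most like those of the members with the widest range, ranked over 17 libraries by Pearson correlation of scaled log2(TPM + 1) among 3763 genes, are given with no p-value. For Renbp they were Mamdc4 (r = 0.996), an endosomal membrane protein known from the suckling rat intestine, Rab11fip5 (0.996), Meltf (0.995), the folate receptor Folr1 (0.993) and the endocytic adaptor Dab2 (0.991), which is also among the 12 suckling markers. For Npl they included the acyltransferase Agpat3 (0.976), Neu1 (0.971), the gluconeogenic Fbp1 (0.966) and the lipid droplet protein Plin2 (0.960). For St3gal1 they were Renbp (0.990), the transcription factor Plagl2 (0.989), the beta-oxidation thiolase Acaa2 (0.988), Mamdc4 (0.988) and Cyp2w1 (0.984). The points of these correlations share libraries, depth and size factors, and they fall into groups by age and dam.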

How the data were processed

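RNA of sorted small-intestinal epithelial cells was measured in 17 libraries. Per the labels' protocols, sorted cells of all groups were stored frozen and thawed together, and cDNA came from a SMART-seq v4 Ultra Low Input kit, with Nextera XT for the libraries. The authors deposited TPM values per gene symbol, and, per the submitters' processing notes, the build was mm10 and the tools included Subread, Bowtie2 and DESeq2, with no version given. The annotation used for counting and its strand setting are not given in the sources used here.

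TPM times the exon length in GENCODE M21 gave whole reads (within 0.01 reads or a relative tolerance of 1e-04) for 93.6% of values above 0, and 95.3% of those under 100 reads. No molecular identifiers were used, so reads can include amplification copies. Read numbers therefore do not count molecules, and their error can exceed counting error. Groups were taken from the sample titles. Genes with at least 1 TPM in at least 2 libraries were tested (15066) on log2(TPM + 1). The test was limma 3.58.1 (R 4.3.3) with its trend option, fitted once to all 17 libraries. Calls are at a Benjamini-Hochberg adjusted p under 0.05 over all genes. A pathway gene is said to rise or fall with age only where it passed as deposited and scaled. No library pair was identical (highest correlation 0.979). The limma fit was also run on simulated reads, drawn for all groups from a common mean per gene apart from a set of changed genes. That simulation held no shift of most genes between groups, so it cannot tell how the calls behave under such a shift. Tables were made with pandas 2.3.3 and numpy 2.4.6 under Python 3.11.15.

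The 10 members, the lists of other genes and markers, and the tests were chosen with earlier results of these data known. Named genes were all members, every other pathway gene called in both scalings or reaching a group mean of 10 TPM, and the 5 genes most like each of the 3 members with the widest range of scaled group means, of which 1 gene is not reported here. Alternatives were pseudocounts of 0.1 and 5, no filter, median-of-ratios scaling, a replicate block, limma-voom on the recovered reads and leaving out each library. Leaving out each library after scaling and the block after scaling were added after seeing the data.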

Additional observations from a re-analysis of the deposited data

How the results depend on the processing

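Calls among the 7 members past the filter, given only as counts, moved with the processing at day 14 and in the IgA-null dam comparison of day 24 with day 14. Between the dams at day 14 the count of 1 was 0 with a pseudocount of 0.1, 3 with a pseudocount of 5, 2 after scaling and 2 with limma-voom on the recovered reads. For day 24 against day 14 with the IgA-null dam the count of 7 was 3 after scaling and 2 with limma-voom. In the same comparison the log2 differences of Gne, Nans and Cmas turned from -1.19, -1.31 and -1.18 to 0.0754, 0.0840 and 0.153 after scaling, and to 0.0767, 0.0788 and 0.154 with limma-voom. Of the 21 other genes, the 5 called at day 14 were 2 with a pseudocount of 0.1 and 3 with no filter. The 20 called for the IgA-null dam at day 24 against day 14 were 7 after scaling and 6 with limma-voom, and those 7 were 4 when the replicate block was added to the scaling. Limma-voom did not test St6galnac2, which had no exon length and so no recovered reads. For genes without whole reads, St3gal1 among them, it used rounded values.

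Leaving out single libraries moved the member counts at day 14 between 0 and 3 as deposited and between 0 and 4 scaled. The first IgA-null dam and the first and second B6 dam libraries gave 0 in both, IgA-null dam replicates 2 and 3 gave 0 scaled, and the third B6 dam library gave the highest count. Members called between the dams at day 24 ranged from 0 to 3, for the change of the dam effect from 0 to 1 scaled, and at day 42 against day 14 with the IgA-null dam stood at 3 scaled, against 5. For the other genes the ranges as deposited were 1 to 6 at day 14, 0 to 3 at day 24, 6 to 13 at day 42 against day 14 with the IgA-null dam and 0 to 2 for the change of the dam effect. Scaled they were 0 to 6 at day 14, 3 to 5 and 3 to 6 at days 24 and 42 against day 14 with the IgA-null dam, 7 to 11 at day 24 with the B6 dam and 0 to 4 for the change of the dam effect. The cause was not tested.

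The sample titles number replicates alike across groups, but same-numbered libraries did not deviate together: of 40 same-number pairs 9 correlated above 0.1 (median r -0.017), as did 18 of 80 other pairs. The numbers were therefore not taken as a pairing. With the replicate block the day 14 counts were 1 of 7 members and 4 of 21 other genes as deposited, and 1 and 5 after scaling. Of 56 member differences, 0 moved by over 1 SD with the block or with no filter, 18 with a pseudocount of 0.1 and 20 with one of 5. With scaling 28 moved and 3 reversed, and with limma-voom 34 moved and 3 reversed. Depth limits Nanp, Cmah and St6gal1, and Renbp after day 14. With 2 libraries at day 24 for the B6 dam, leaving out either leaves 1, which is assumed to vary like the other groups.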
